A study of Mus musculus with 6 samples.

Results

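The comparison described here set mouse marrow cells carrying a retroviral vector for MN1 against marrow cells that bear Gr1 and CD11b, the surface markers of granulocytes and monocytes. Its members are 4 of the 6 arrays of the series, chosen by their titles: 2 of the MN1 group and 2 of the group called Gr1Mac. All 18193 genes with a probe set that names 1 gene only were described, and a gene with several such probe sets was read through the one brightest on average across the 6 arrays. The last 2 arrays, of a construct named MN1VP16, entered the fit and are given only as points of reference.

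For the MN1 group, marrow came from C57BL/6J donors given 5-fluorouracil (150 mg/kg, 4 days). Those cells were kept for 48 hours with hIL6 at 10 ng/mL, mIL3 at 6 ng/mL and mSCF at 20 ng/mL, and were transduced with supernatant of the gammaretroviral vector pSF91-MN1-IRES-GFP. They were transplanted into syngeneic mice, and 4 weeks after that, marrow cells that made GFP were sorted. The promoter, the species of the inserted MN1 sequence and the lineage of the sorted cells were not given in the sources used here. The Gr1Mac cells were marrow cells of the same strain, C57BL6, positive for Gr1 and CD11b. Their labels repeat the same protocols but name no vector, and do not say whether the cells came from transplanted or treated mice. The vector and the kind of cell sorted thus differ together and cannot be told apart.

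MN1 is a transcriptional cofactor, and its overexpression in mouse marrow gives a myeloid leukaemia. Immature blood cells express homeobox genes such as Hoxa9 and Meis1 and divide with a high output of ribosomes. As granulocytes and monocytes mature, these genes fall silent, C/EBP and PU.1 factors take over, and the cells fill with granule proteins, lysosomal enzymes, pattern receptors and the actin machinery of migration.

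The values were log2 RMA values, in which 1 unit is a 2-fold step. A gene was called where limma's Benjamini-Hochberg adjusted p over all genes was under 0.05. Of the 18193 genes, limma called 3147 (17.3%) higher and 2187 (12.0%) lower in MN1, and 7243 had an unadjusted p under 0.05. At least 4-fold differences were called for 935 genes (5.14%) that were higher and 586 (3.22%) that were lower. At 16-fold and more the numbers were 147 and 29, and at 64-fold and more 25 and 0, so the largest fitted differences lay on the side of MN1. The balance of calls depended on the scaling. With each array centred on the median of its 18193 gene values, here and below, 2484 genes were higher and 4003 lower. That centring moved the median difference of all genes from -0.06 to -0.32, and list medians below can be read against the first of these values.

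A background guide was needed for genes that one of the groups may not express. The readings of 112 genes for olfactory, vomeronasal and taste receptors and keratin-associated proteins, which blood cells are not known to use, had a 95th percentile of 5.76 log2 units. Both group means lay at or under it for 7079 genes, of which 299 were called. Where the dimmer group of a called gene lay at or under 5.76, the fold is a lower bound ("at least"), taken against the guide or, on an array that read higher, against its own reading. These bounds depend on the guide: at the 99th percentile, 6.98, they were 47.4-fold for Hoxa9, 14.4-fold for Cd34 and 69.0-fold for Cpa3, and the folds of Ms4a2 and Klf1 became bounds of 99.1 and 39.3. Among genes whose brighter group exceeded 11 log2 units, 30.8% were called higher and 37.1% lower, whereas at 7 to 8 units 29.6% were higher and 11.5% lower. The brightest genes were thus those most often called lower.

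**Figure D1:**
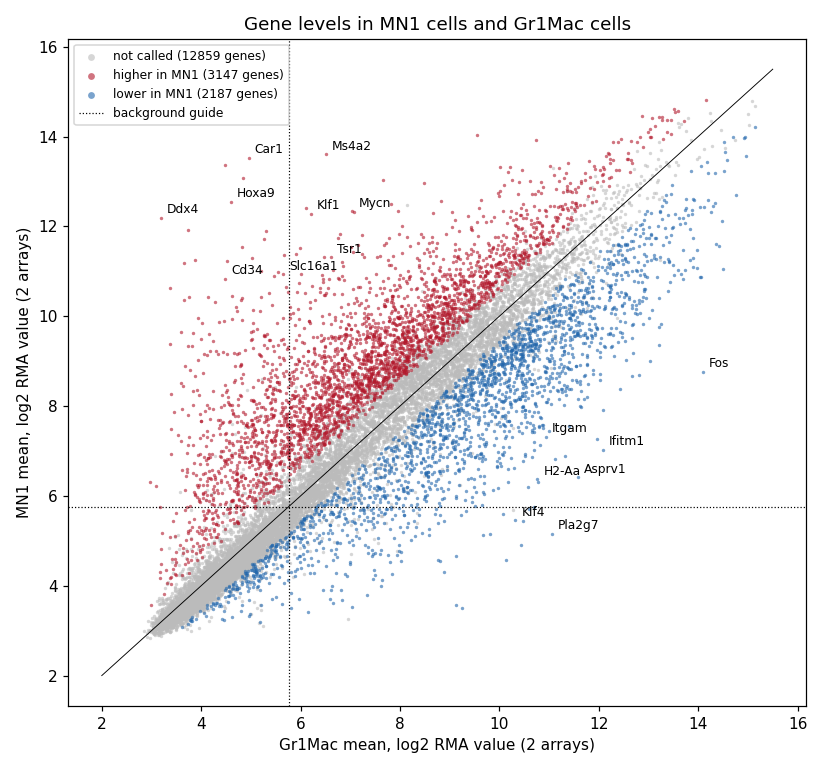
Mean log2 RMA value of each of 18193 genes in Gr1Mac (x axis, 2 arrays) and in MN1 (y axis, 2 arrays); red and blue points are the 3147 and 2187 genes called higher and lower in MN1, grey points are not called, the diagonal marks equal levels and the dotted lines the background guide of 5.76. With each array centred on its median, which gave 2484 higher and 4003 lower calls, the blue side holds more genes than the red one.

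The arrays differed in ways that the labels do not give. Across probe sets the 2 MN1 arrays correlated at 0.990 and the 2 Gr1Mac arrays at 0.982, and MN1 array 1 lay nearer to Gr1Mac (0.927 and 0.913) than MN1 array 2 did (0.906 and 0.890). MN1 array 2 was the farther of the pair from Gr1Mac in 71.7% of the genes called higher and 78.3% of those called lower. Xist, transcribed in female cells, read 12.36 and 12.59 in MN1 but 10.44 and 5.83 on Gr1Mac arrays 1 and 2, and the Y-linked Kdm5d read 3.01 and 3.20 against 3.11 and 7.37. Gr1Mac array 2 thus differed from the other 3 in these genes, and without it limma called 2321 genes higher and 1690 lower. The 30 brightest control features put both MN1 arrays on one side and both Gr1Mac arrays on the other. Within the 4 arrays that split and the groups cannot be told apart. With the split as a block, which the MN1VP16 arrays alone make possible, 914 of the 18193 genes were higher and 572 lower. Without that block the counts were 3147 and 2187. Calls among all genes also became fewer when any 1 of the 4 arrays was left out. A lower list count below, under the split or without an array, thus need not be particular to its list. The single probe set for Mn1 read 3.92 and 4.51 in MN1 against 3.63 and 4.21 in Gr1Mac, was not called (adjusted p = 0.621), and does not check the vector, whose ends are not given.

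Genes that mark the groups were looked at first. Hoxa9, whose homeodomain protein is abundant in immature cells, read 12.38 and 12.71 on the MN1 arrays and 5.02 and 4.17 on the Gr1Mac arrays, at least 110-fold higher (limma adjusted p = 0.00117). Cd34, a surface protein of stem and progenitor cells, read 10.50 and 11.15 against 4.96 and 4.00, at least 33.6-fold higher (adjusted p = 0.00155). Klf4, a transcription factor of monocyte maturation, read 5.36 and 5.56 against 10.79 and 9.85, at least 23.6-fold lower (adjusted p = 0.00117). In each of these genes every MN1 array lay more than 4 log2 units from every Gr1Mac array. Itgam, which encodes the CD11b used in the sort, read 7.67 and 6.95 against 10.95 and 10.92, and was 12.3-fold lower in MN1 (adjusted p = 0.00137). Ly6g and the Ly6c genes, which encode Gr1, had no single-gene probe set.

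Transcription factors of immature cells made up the first group of rises. Of 28 measured stem and progenitor factors, 17 rose and 1 fell, with a median difference of 2.58. Meis2, a homeobox partner of the HOX proteins, read 10.51 and 10.74 in MN1 and 3.21 and 3.53 in Gr1Mac, at least 29.1-fold higher (adjusted p = 0.00424). Mycn, a Myc family factor of stem cells, read 12.18 and 12.48 against 6.80 and 7.28, which is 39.2-fold higher (adjusted p = 0.00098). Tal1, a helix-loop-helix factor that starts blood formation, read 11.16 and 11.64 against 6.21 and 5.62, a 44.7-fold rise (adjusted p = 0.00211). None of these overlapped between the groups, but neither did many others. Of all 18193 genes, 5626 had both MN1 arrays above both Gr1Mac arrays, and 6522 had both below. Gata2, a zinc finger factor of stem and mast cells, was at least 69.9-fold higher. The exception was Nfe2, a factor of platelet formation, which fell by 1.25 ± 0.21 log2 units (SE), a call lost without MN1 array 2 and with the split as a block.

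Among 16 measured HoxA, Meis and Pbx genes, 7 rose and 1, Pbx2, fell, and 4 lay under the guide in both groups. Hoxa10 read 9.69 and 10.00 against 3.97 and 4.05, at least 17.0-fold higher, and lost its call without probe sets that can match several transcripts. Hoxa11 read 9.57 and 9.37 against 5.43 and 5.34, at least 13.1-fold higher, a call that was lost without any 1 of the 4 arrays. Its readings on MN1VP16 arrays 1 and 2, which enter the estimate of spread, were 5.26 and 7.98. The count of rises in the whole group was 4 without MN1 array 1, 3 without MN1 array 2, 3 without Gr1Mac array 1 and 4 without Gr1Mac array 2.

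Surface proteins of stem and progenitor cells changed in both directions. Adgrg1, an adhesion receptor of stem cells, read 11.02 and 10.95 in MN1 against 5.20 and 5.88, at least 35.9-fold higher (adjusted p = 0.00107). Kit, the receptor of stem cell factor, averaged 11.18 ± 0.08 (SD, n = 2) against 8.67 ± 0.47 (SD, n = 2), a 5.72-fold rise. Both genes were clear of the Gr1Mac arrays by over 2 units. In the list of 22 stem and progenitor surface proteins 10 rose, and the 3 that fell were Prom1, Alcam and Cd9. Prom1 read 9.34 and 7.55 in MN1 against 11.28 and 11.45, and its call was lost without either Gr1Mac array and with the split.

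Receptors for cytokines moved mostly the other way, with 4 rises and 14 falls among 35 and a median of -0.91. The rises were Flt3, Il7r, Epor and Kit, of which Flt3 lost its call without either Gr1Mac array. Il7r, the receptor chain of lymphoid progenitors, read 8.60 and 8.55 against 5.20 and 5.07, at least 7.04-fold higher (adjusted p = 0.000967). Epor, the erythropoietin receptor, read 10.10 and 10.62 against 7.04 and 7.60, an 8.19-fold rise. Csf1r, the receptor of the macrophage growth factor, read 9.98 and 9.67 against 13.18 and 12.60, an 8.39-fold fall (adjusted p = 0.00168). The interleukin 10 receptor chain Il10ra read 4.69 and 4.70 against 8.34 and 7.20, at least 4.02-fold lower. The falls numbered 9 without MN1 array 2 and 6 with the control-feature split as a block.

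**Figure D2:**
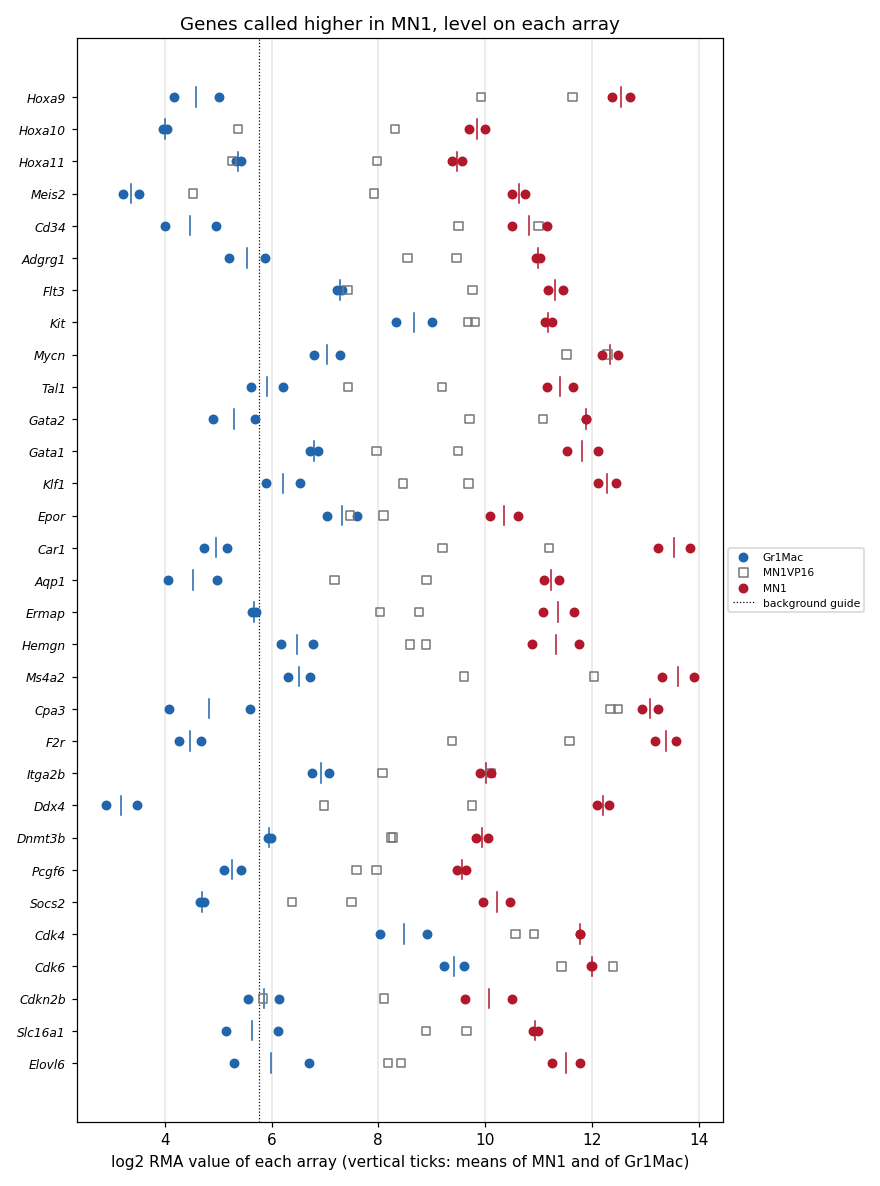
Log2 RMA value on each array (x axis) of 31 genes called higher in MN1; red circles are MN1, blue circles Gr1Mac, open squares MN1VP16, vertical ticks the means of MN1 and Gr1Mac, and the dotted line the background guide of 5.76. In no gene do the red and blue points overlap, as in 5626 of all 18193 genes with MN1 above Gr1Mac. Hoxa9 stands at 12.38 and 12.71 against 5.02 and 4.17.

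Genes for building ribosomes rose together. Of 46 measured genes of nucleolar ribosome biogenesis, 42 rose and 0 fell, and their median difference was 2.42. The mean of the list was 9.99 and 10.00 on the MN1 arrays and 8.01 and 7.43 on the Gr1Mac arrays. Tsr1, which matures the small ribosomal subunit, read 11.32 and 11.30 against 6.97 and 6.26, a 25.9-fold rise (adjusted p = 0.00098). Nop58, a core protein of the particles that methylate ribosomal RNA, read 10.52 and 10.13 against 6.52 and 5.85, a 17.6-fold rise. The stem cell nucleolar protein Gnl3 read 10.84 and 10.97 against 7.19 and 6.46, a 16.9-fold rise. In all 3 the lower MN1 array lay over 3 units above the higher Gr1Mac array. With the control-feature split as a block 26 of the 46 rose, and without any single array of the 4 between 32 and 43.

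Ribosomal proteins themselves had a smaller median. Of 49 cytosolic ribosomal protein genes 36 rose, with a median of 1.11, and 1, the paralogue Rps4l, fell, a call lost without Gr1Mac array 1. Rpl12 read 9.25 and 9.53 against 6.09 and 5.24, at least 11-fold higher, and Rps6, a phosphorylated protein of the small subunit, read 10.60 and 10.62 against 8.96 and 8.40, a 3.82-fold rise. Ribosomal protein genes have many near-identical pseudogene copies, and without probe sets that can match several transcripts 16 rose. The count was 15 without MN1 array 1, 11 without MN1 array 2 and 4 with the control-feature split as a block.

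Mitochondrial ribosomal proteins gave 37 rises and 1 fall among 75, with a median of 0.87. The fall, Mrpl33, was lost without MN1 array 2 or either Gr1Mac array. Mrps6 read 9.28 and 9.44 against 6.50 and 4.61, at least 9.40-fold higher, and lost its call with the split as a block. Fewer of the 75 rose without either MN1 array, and more without Gr1Mac array 1. With the split 3 of the 75 rose, with a median of 0.81, while 914 of all 18193 genes were called higher. Gr1Mac array 2 read lower than Gr1Mac array 1 in the means of these growth lists. Respiratory chain and ATP synthase subunits rose in 24 of 81 and fell in 1, a share nearer to the 17.3% of all genes, and with each array centred on its median 17 rose and 5 fell. That count was 10 without MN1 array 1, 7 without MN1 array 2, 16 without probe sets that can match several transcripts and 0 with the split.

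Enzymes that charge transfer RNAs rose in 26 of 33 with 0 falls and a median of 1.43. Iars, which charges isoleucine transfer RNA, read 10.20 and 10.24 against 8.08 and 7.26, a 5.83-fold rise (adjusted p = 0.00251). Its mitochondrial relative for leucine, Lars2, read 9.53 and 9.77 against 7.39 and 6.90, a 5.66-fold rise. Translation initiation factors rose in 27 of 47 and fell in 3, and nuclear pore proteins with transport receptors rose in 31 of 49 and fell in 1. Ipo4, an import receptor, was 4.58-fold higher, and Xpot, the export receptor of transfer RNA, 4.39-fold. Without MN1 array 2 the rises numbered 16, 11 and 11 in these 3 lists, and with the split 8, 4 and 9. Without MN1 array 1 the initiation factors and pore proteins each gave 17, and without Gr1Mac array 2 the pore proteins gave 20.

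Protein folding genes were also higher. Of 34 chaperonins, heat shock proteins and mitochondrial import proteins, 26 rose and 0 fell, with a median of 1.73, and 17 rose with the split. Hspa9, the mitochondrial Hsp70, read 11.30 and 11.37 against 7.88 and 7.31, a 13.4-fold rise (adjusted p = 0.00098). Hspe1, the small lid of the mitochondrial chaperonin, read 11.18 and 11.48 against 8.48 and 7.25, an 11-fold rise. The cytosolic chaperone Hsph1 read 10.69 and 10.99 against 7.62 and 5.90, a 16.9-fold rise. The Gr1Mac arrays lay over 1 unit apart in Hspe1 and Hsph1, yet both stayed below the MN1 arrays. Proteasome subunits rose in 17 of 39 and fell in 0, and 3 rose without MN1 array 2, 7 without MN1 array 1, 9 without Gr1Mac array 2, 11 with centred arrays, 10 without probe sets that can match several transcripts and 3 with the split. Psmd7, a lid subunit, read 10.02 and 10.06 against 7.62 and 7.10 and was 6.42-fold higher.

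Synthesis of nucleotides and one-carbon units was higher at most of its steps. Nucleotide enzymes rose in 20 of 24 and fell in 2, with a median of 2.02. Ppat, the first enzyme of purine synthesis, read 9.28 and 9.17 against 6.42 and 5.88, an 8.42-fold rise (adjusted p = 0.00123). Cad, which opens pyrimidine synthesis, read 9.78 and 10.54 against 6.31 and 5.58, an 18.6-fold rise. Of 17 serine, folate and polyamine enzymes 11 rose and 2 fell. Mthfd1, the cytosolic folate enzyme with several activities, read 11.69 and 11.97 against 8.36 and 7.61, a 14.4-fold rise. Srm, which makes spermidine, read 11.66 and 11.49 against 8.22 and 7.15, a 14.8-fold rise. Sat1, which acetylates spermidine for removal, went the other way and read 10.20 and 9.23 against 11.69 and 12.23, a 4.73-fold fall, lost with the split as a block. The split left 11 of the nucleotide rises and 5 of the serine, folate and polyamine rises, and 6 of the latter were called without probe sets that can match several transcripts.

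Enzymes of central carbon metabolism were taken as 2 pathway lists. Tricarboxylic acid cycle enzymes rose in 16 of 24 and fell in 1, with a median of 0.80, whereas glycolytic and pentose phosphate enzymes and carriers rose in 5 of 27 and fell in 13, with a median of -0.62. Suclg2, a subunit of succinyl-CoA ligase, read 10.70 and 10.84 against 7.87 and 6.90, a 10.4-fold rise (adjusted p = 0.00251). Idh3a, a subunit of the isocitrate dehydrogenase that makes NADH, read 10.72 and 10.89 against 8.84 and 8.52, a 4.38-fold rise. The fall in the cycle list was Idh1, the cytosolic enzyme that makes NADPH, at 10.80 and 10.27 against 11.99 and 11.61, a call lost without MN1 array 2 or Gr1Mac array 1.

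On the glycolytic side Pfkfb4, which sets the activator of phosphofructokinase, read 8.99 and 8.46 against 11.53 and 11.10, a 6.04-fold fall (adjusted p = 0.00188). The glucose carrier Slc2a3 read 11.78 and 11.17 against 13.55 and 13.86, a 4.69-fold fall that was lost with the split as a block. Pfkm, the muscle type of phosphofructokinase, rose 7.81-fold, lost with the split, while Hk3, the hexokinase of granulocytes, read 11.03 and 9.84 against 12.83 and 12.94. The Hk3 fall lost its call without MN1 array 2 or either Gr1Mac array, and with the split. Slc16a1, a carrier of lactate and pyruvate, read 10.89 and 10.99 against 6.13 and 5.16, at least 31.8-fold higher (adjusted p = 0.00117). The cycle list had 5 rises without MN1 array 1, 3 without MN1 array 2, 10 without Gr1Mac array 2, 10 with centred arrays, 9 without probe sets that can match several transcripts and 2 with the split. The glycolytic list had 6 falls without MN1 array 2, 8 without Gr1Mac array 1, 7 without Gr1Mac array 2 and 2 with the split.

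Amino acid transporters changed in both directions, with 9 rises (31.0%, against 17.3% of all genes), 4 falls (13.8%, against 12.0%) and a median of 0.02 among 29, which turned to -0.23 with each array centred on its median and also turned negative with quantile normalization. Slc38a5, a glutamine carrier, read 10.61 and 11.16 against 5.67 and 5.27, at least 35.0-fold higher (adjusted p = 0.00134). Slc7a5, a carrier of large neutral amino acids, read 8.99 and 8.84 against 5.94 and 6.33, a 6.86-fold rise. Slc36a4 read 4.75 and 4.34 against 8.30 and 7.75, at least 4.80-fold lower. Lipid enzymes were mixed in the same way, with 9 rises, 6 falls and a median of 0.09 among 32, which turned to -0.17 with centring and to -0.12 with quantile normalization. Elovl6, which lengthens fatty acids, read 11.78 and 11.25 against 6.69 and 5.30, a 45.8-fold rise (adjusted p = 0.00137). Gpam, which starts glycerolipid synthesis, read 12.72 and 11.91 against 7.41 and 6.73, a 38.0-fold rise. Hsd17b7, an enzyme of cholesterol synthesis, read 7.08 and 7.48 against 9.01 and 8.81, a 3.10-fold fall.

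Genes of DNA copying were set beside those of mitosis. Replication genes rose in 31 of 45 with 0 falls and a median of 1.29, and mitotic spindle and kinetochore genes rose in 5 of 51 and fell in 1, with a median of 0.24 that turned to -0.02 with each array centred on its median. The mitotic share of rises was under the 17.3% of all genes. Ung, which removes uracil from DNA, read 9.99 and 9.78 against 6.95 and 5.39, a 13.1-fold rise. Chaf1b, which loads histones on new DNA, read 9.41 and 9.65 against 7.69 and 7.08, a 4.42-fold rise. Both lost their calls with the split as a block. Of the mitotic genes Mad2l1, a spindle checkpoint protein, read 11.92 and 11.45 against 10.04 and 10.02, a 3.16-fold rise lost with the split. Plk1, a mitotic kinase named here after its values were seen, read 9.29 and 8.98 against 9.42 and 8.78, and the 95% interval of its fold ran from 0.648 to 1.62. Replication rises numbered 13 without MN1 array 1, 9 without MN1 array 2, 17 without Gr1Mac array 2 and 11 with the split, and mitotic rises between 1 and 10, the latter without Gr1Mac array 1.

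Regulators of the first gap phase went in both directions, with 7 rises and 5 falls among 23. The kinase Cdk4 read 11.77 and 11.77 in MN1 against 8.92 and 8.03, a 9.83-fold rise (adjusted p = 0.00172). Its relative Cdk6 read 12.00 and 11.99 against 9.61 and 9.23, a 5.96-fold rise. Inhibitors divided: Cdkn1a read 10.13 and 11.16 against 8.19 and 7.82, a 6.22-fold rise lost with the split, and Cdkn2d read 8.63 and 8.10 against 10.97 and 11.34, a 6.94-fold fall. Cdkn2b, the p15 inhibitor, read 9.62 and 10.51 against 5.56 and 6.15, an 18.5-fold rise that was lost without MN1 array 2, without Gr1Mac array 1 and with the split. Ccnd3, a D cyclin, fell 2.77-fold and E2f2 3.81-fold. In each gene given here with its values the groups did not overlap, a trait shared by the 5626 and 6522 genes given above. Rises in the list numbered 3 without MN1 array 2, 4 without either Gr1Mac array and 2 with the split.

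Chromatin regulators rose more often than they fell, in 21 against 6 of 59, with a median of 0.39. Dnmt3b, which sets new DNA methylation, read 9.82 and 10.05 against 5.93 and 5.99, a 15.7-fold rise (adjusted p = 0.000589). Pcgf6, a Polycomb ring finger protein, read 9.47 and 9.65 against 5.42 and 5.11, at least 13.9-fold higher. Bmi1, the Polycomb protein of stem cells, read 10.84 and 10.91 against 8.31 and 8.06, a 6.45-fold rise. In contrast Kdm6b, which removes methyl groups set by Polycomb, read 9.61 and 9.65 against 11.89 and 11.55, a 4.27-fold fall (adjusted p = 0.00137). The rises numbered 12 without MN1 array 1, 9 without MN1 array 2, 7 with the split and 14 with quantile normalization. Among RNA helicases 26 of 51 rose (13 without MN1 array 1, 14 without MN1 array 2 and 10 with the split), and the largest rise was in Ddx4, a helicase otherwise known from germ cells. Its reading was 12.09 and 12.31 in MN1 against 3.48 and 2.90 in Gr1Mac, at least 86.7-fold higher (adjusted p = 0.00168).

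Among markers of red cell precursors 15 of 18 rose and 0 fell, and the median was 3.22. In bulk samples, fewer cells of a type and less RNA per cell cannot be told apart. Klf1, the erythroid Krüppel factor, read 12.11 and 12.44 against 5.90 and 6.53, a 66.9-fold rise (adjusted p = 0.00117). Ermap, a membrane protein of red cells, read 11.07 and 11.66 against 5.63 and 5.70, at least 48.9-fold higher. Hemgn, a nuclear protein of erythroid progenitors, read 10.88 and 11.76 against 6.18 and 6.78, a 28.7-fold rise. The MN1 arrays stood above both Gr1Mac arrays by at least 4 units in these 3 genes, and MN1 array 2 was the higher. Haem enzymes rose in 8 of 15, with Uros at 10.63 and 11.40 against 8.38 and 7.96, and Hmox1, which degrades haem, fell 4.30-fold; with the split 2 rose. Of the 3 erythroid markers not called, Hba-a1, a globin, read 4.20 and 4.02 against 4.40 and 4.75, under the guide on all 4 arrays. Alas2, the erythroid starter of haem synthesis, read 9.11 and 10.39 against 10.98 and 9.72. Slc4a1, Epb42, Ank1 and Sptb, of the same list, were called higher. Hba-a1, Alas2 and these genes were named after their values were seen.

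Among markers of mast cells and basophils 7 of 17 rose and 1 fell, the median was 1.70, and 4 rose without probe sets that can match several transcripts. Ms4a2, a chain of the high-affinity IgE receptor, read 13.31 and 13.90 against 6.72 and 6.30, a 137-fold rise (adjusted p = 0.00215). Cpa3, the carboxypeptidase of mast cell granules, read 12.93 and 13.24 against 5.59 and 4.08, at least 160-fold higher. Slc18a2, which loads histamine into granules, read 8.80 and 9.54 against 4.14 and 3.97, at least 10.6-fold higher. Of the megakaryocyte list 5 of 18 rose and 4 fell, with 1 rise without MN1 array 2 and 1 with the split. F2r, the thrombin receptor, read 13.18 and 13.58 against 4.68 and 4.28, at least 196-fold higher, whereas Clec1b, a platelet lectin, read 6.35 and 5.18 against 8.89 and 8.72, a call lost with the split. Of the other lineages, eosinophil markers gave 0 calls of 6, B cell markers 4 rises and 2 falls of 20, T and NK cell markers 1 and 1 of 18, dendritic cell markers 3 and 3 of 15, and stroma and endothelium 1 and 5 of 20. Against 17.3% higher and 12.0% lower among all genes, the rises of B cell and dendritic cell markers were 20.0% each, and the falls of dendritic cell and stromal markers 20.0% and 25.0%. The part of other cells in the erythroid and mast cell values was not tested.

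Genes of granule proteins were lower. In the list of secondary and tertiary granules 16 of 22 fell, none rose and the median was -2.44. In that of primary granules 5 of 14 fell and 1, the chaperone Calr, rose, and 3 fell without MN1 array 2, 1 without either Gr1Mac array and 1 with the split. The secondary list averaged 11.20 and 10.18 on the MN1 arrays and 12.66 and 12.82 on the Gr1Mac arrays. Not every gene counted in that list encodes a granule protein. Arg2, counted there, is an arginase of mitochondria and read 7.43 and 6.31 against 10.52 and 10.80, a 13.8-fold fall (adjusted p = 0.00207). Fcnb, a ficolin of granules, read 8.52 and 7.28 against 11.67 and 12.50, an 18.2-fold fall (adjusted p = 0.0037). MN1 array 1 was nearer to Gr1Mac in both. Some abundant transcripts of granulocytes read above 12 in both groups, as 3 genes named after their values were seen show. Camp, the cathelicidin, read 14.50 and 13.93 against 15.14 and 15.13, a 1.89-fold fall. S100a8, a calcium-binding protein of neutrophils, read 14.98 and 14.60 against 15.07 and 15.11 and was not called. Mpo, the peroxidase of primary granules, read 13.76 and 12.29 against 13.30 and 12.51 and was not called either. The falls in the secondary list numbered 8 without MN1 array 2, 9 without Gr1Mac array 1, 6 without Gr1Mac array 2 and 3 with the split.

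Many early genes that respond to signals, and some myeloid transcription factors, were lower. AP-1 and other immediate early genes fell in 14 of 25 and rose in 0, with a median of -2.08. Fos, a subunit of AP-1, read 8.71 and 8.82 in MN1 against 14.06 and 14.13, a 40.1-fold fall (adjusted p = 0.00107). Its partner Junb read 6.91 and 7.12 against 10.75 and 10.65, a 12.8-fold fall. Cebpb, a C/EBP factor of macrophages and granulocytes, read 7.46 and 6.41 against 10.80 and 10.21, an 11.9-fold fall, and Spi1, which encodes PU.1, read 9.82 and 8.99 against 11.90 and 11.56, a 5.02-fold fall. Of the 15 C/EBP, PU.1 and interferon regulatory factors 4 fell, 0 rose and 11 were not called. Among the 4 falls Spic averaged 4.82 in MN1 and 5.70 in Gr1Mac, both under the guide. With centring or with quantile normalization 8 of the 15 fell. With the split as a block 3 immediate early genes rose and 6 fell. On MN1VP16 arrays 1 and 2, which set that block, the list averaged 8.79 and 10.01. Immediate early genes are also known to respond to cell handling, and its part here was not tested.

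Signalling below the receptors showed falls in NF-kB genes and opposed changes among suppressors of cytokine signalling. Of 24 genes of the NF-kB pathway 9 fell and 0 rose. Bcl3, a nuclear co-regulator of NF-kB, read 6.25 and 6.11 against 8.68 and 8.98, a 6.26-fold fall (adjusted p = 0.00116), and the kinase Map3k8 read 6.38 and 5.60 against 8.57 and 8.44, a 5.72-fold fall. Suppressors of cytokine signalling gave 4 rises and 4 falls among 13. Socs2, which limits growth hormone and STAT5 signals, read 10.46 and 9.97 against 4.73 and 4.66, at least 21.9-fold higher (adjusted p = 0.00111). Socs3, which limits interleukin 6 and G-CSF signals, read 5.63 and 5.54 against 8.26 and 10.21, at least 11.1-fold lower, and lost its call without any 1 of the 4 arrays. The NF-kB falls numbered 4 without MN1 array 2, 14 with centred arrays and 3 with the split. The suppressor list gave 2 rises and 2 falls without either MN1 array. In the Bcl2 family Bcl2, which blocks cell death, rose 3.02-fold and Mcl1, of the same function, fell 2.35-fold, each lost with the split and the second also without MN1 array 2.

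Sensing of microbes and chemoattractants was lower. Toll-like receptors and their adaptors fell in 11 of 21, with 0 rises and a median of -1.57. Tlr2, which senses bacterial lipoproteins, read 8.37 and 7.48 against 10.48 and 10.54, a 6.00-fold fall (adjusted p = 0.00428). Of 22 Fc and complement genes 11 fell and 2 rose, and of 36 chemoattractant receptors 11 fell and 1, Ccr9, rose, a call lost without probe sets that can match several transcripts. Ccr2, the receptor that brings monocytes to tissue, read 7.81 and 7.94 against 11.05 and 10.35, a 7.08-fold fall (adjusted p = 0.00155). Ccr1 read 10.13 and 9.68 against 12.22 and 12.63, a 5.73-fold fall. Without MN1 array 2 the last 2 lists had 7 and 5 falls, without Gr1Mac array 2 7 and 7, and with the split 5 and 5, and the chemoattractant receptors had 6 without Gr1Mac array 1. NADPH oxidase and S100 genes fell in 10 of 17, with Cybb, the catalytic subunit, at 11.54 and 10.35 against 13.47 and 13.84. That list had 6 falls without MN1 array 2, 5 without Gr1Mac array 1, 6 without Gr1Mac array 2 and 1 with the split, which also ended the call of Cybb.

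Secreted signals gave 5 rises (5.88%, against 17.3% of all genes) and 14 falls (16.5%, against 12.0%) among 85 chemokine, interleukin and TNF family genes. Of these 85, 48 lay under the guide in both groups. Tnfsf13b, the B cell survival factor BAFF, read 7.25 and 6.55 against 11.56 and 11.08, a 21.5-fold fall (adjusted p = 0.00107), and the chemokine Ccl6 read 9.25 and 8.13 against 12.69 and 12.91, a 17.3-fold fall. Il6 was among the rises, at 6.68 and 7.92 against 3.94 and 3.57, at least 2.91-fold, and lost its call with the split. Falls in this list numbered 8 without MN1 array 2, 7 with the split and 24 with each array centred on its median. Genes of lipid mediators fell in 10 of 25 and rose in 2. Pla2g7, which degrades platelet-activating factor, read 5.78 and 4.53 against 10.98 and 11.13, at least 38.9-fold lower (adjusted p = 0.00445). Ptgs2, the inducible cyclooxygenase, read 3.39 and 3.61 against 8.91 and 9.58, at least 11.2-fold lower. Both were near the background in MN1 and well above it in Gr1Mac. The list had 6 falls without MN1 array 2 and 3 with the split.

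Antigen presentation was lower in its classical class II genes. H2-Aa, a class II chain, read 6.54 and 6.20 against 10.72 and 10.81, a 21.0-fold fall (adjusted p = 0.000885), and Cd74, the invariant chain, read 6.92 and 5.95 against 9.53 and 9.83, a 9.50-fold fall. Cd86, a co-stimulator, read 4.30 and 4.01 against 7.69 and 7.22, at least 3.24-fold lower. Of 14 class II genes 7 fell and 2 rose, and 3 fell without probe sets that can match several transcripts. Interferon-induced transmembrane genes fell in 4 of 6. Ifitm1 read 6.79 and 7.27 against 11.91 and 12.24, a 33.0-fold fall, and Ifitm6 read 11.49 and 10.60 against 14.31 and 14.68, a 10.9-fold fall. Other interferon-stimulated genes fell in 7 of 38, and 1 fell without any 1 of MN1 array 1, MN1 array 2 or Gr1Mac array 1 and 3 without Gr1Mac array 2. With the split as a block their median turned from -0.51 to 0.50, with 4 rises and 0 falls. The block takes off the difference between MN1VP16 arrays 1 and 2, on which this list averaged 8.96 and 10.06.

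Genes of lysosomes, autophagy and cell movement formed the last group of falls. Actin cytoskeleton and motility genes fell in 28 of 38 and rose in 1, Rdx, with a median of -1.21. Rdx lost its call without MN1 array 2. Fmnl2, a formin that extends actin filaments, read 7.45 and 6.20 against 11.11 and 11.12, a 19.6-fold fall (adjusted p = 0.00159). Lsp1, an actin-binding protein of leukocytes, read 11.07 and 10.05 against 13.51 and 13.29, a 7.16-fold fall. Pfn1, which supplies actin monomers, read 9.98 and 10.05 against 12.00 and 11.66, a 3.52-fold fall. The falls numbered 14 without MN1 array 2 and 8 with the split.

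Lysosomal hydrolases fell in 20 of 48 and rose in 3. Ctsh, a cathepsin, read 9.04 and 8.10 against 12.22 and 11.81, a 10.9-fold fall, and Ctss, a cathepsin of antigen-presenting cells, read 9.79 and 9.75 against 13.36 and 13.08, an 11-fold fall. Autophagy genes fell in 13 of 34 and rose in 4. Atg7, which activates the conjugation step, read 8.14 and 7.59 against 9.87 and 9.53, a 3.57-fold fall (adjusted p = 0.00435). In contrast Gabarapl1 read 9.22 and 9.59 against 7.56 and 6.84, a 4.62-fold rise. Lysosomal falls numbered 7 without MN1 array 2, 13 without Gr1Mac array 1 and 8 with the split. Autophagy falls numbered 8 without MN1 array 1 and 6 with the split. Of 26 markers of monocytes and macrophages 19 fell and 1 rose, with 10 falls without MN1 array 2 and 11 without Gr1Mac array 1. Adgre4, an adhesion receptor of monocytes, read 4.55 and 4.78 against 9.22 and 9.06, at least 10.4-fold lower.

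Adhesion molecules and surface lectins fell more often than they rose. Integrin chains rose in 4 of 25 and fell in 8, with 5 falls without MN1 array 2 or Gr1Mac array 1 and 3 with the split. Itgal, a chain of the leukocyte integrin LFA-1, read 9.92 and 9.51 against 11.78 and 11.83, a 4.26-fold fall (adjusted p = 0.00182). Itga4, a chain that anchors progenitors in marrow, read 11.16 and 11.59 against 10.52 and 10.05, a 2.13-fold rise. C-type lectins and Siglecs fell in 13 of 44 and rose in 1, Clec11a, a growth factor of progenitors, at 7.92 and 7.24 against 5.78 and 5.41. The falls numbered 20 with centred arrays and 6 with the split, which also ended the call of Clec11a. In these genes the groups did not overlap, as in the 5626 and 6522 genes given above.

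Class I antigen processing genes gave 2 rises and 4 falls among 19, and retinoid genes 2 rises and 6 falls among 28. Their falls were 21.1% and 21.4% of the lists, above the 12.0% of all genes, and their rises were below 17.3%. H2-Q10, a nonclassical class I chain, read 6.91 and 6.35 against 10.09 and 10.49, a 12.7-fold fall (adjusted p = 0.00107). Rarg, a retinoic acid receptor, read 7.20 and 6.93 against 8.88 and 8.76, a 3.38-fold fall (adjusted p = 0.00325). Retinoid falls numbered 3 without MN1 array 2, 2 with the split, 13 with centred arrays and 10 with quantile normalization. Dual-specificity phosphatases rose in 2 and fell in 2 of 24, shares under those of all genes.

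**Figure D3:**
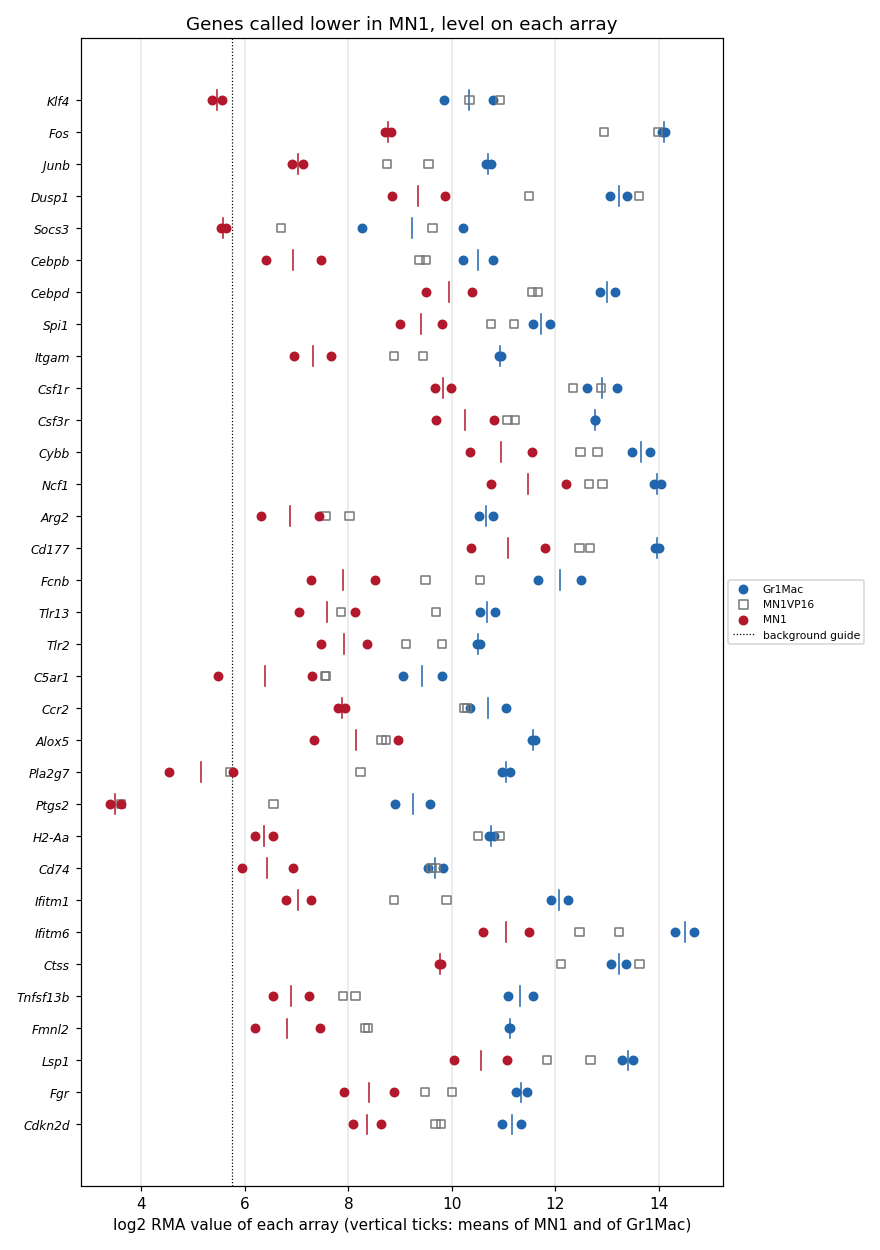
Log2 RMA value on each array (x axis) of 33 genes called lower in MN1, drawn with red circles for MN1, blue circles for Gr1Mac, open squares for MN1VP16, ticks for the means of MN1 and Gr1Mac and a dotted line for the background guide of 5.76. In no gene do the red and blue points overlap, as in 6522 of all 18193 genes with MN1 below Gr1Mac. Fos stands at 8.71 and 8.82 against 14.06 and 14.13.

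**Figure D4:**
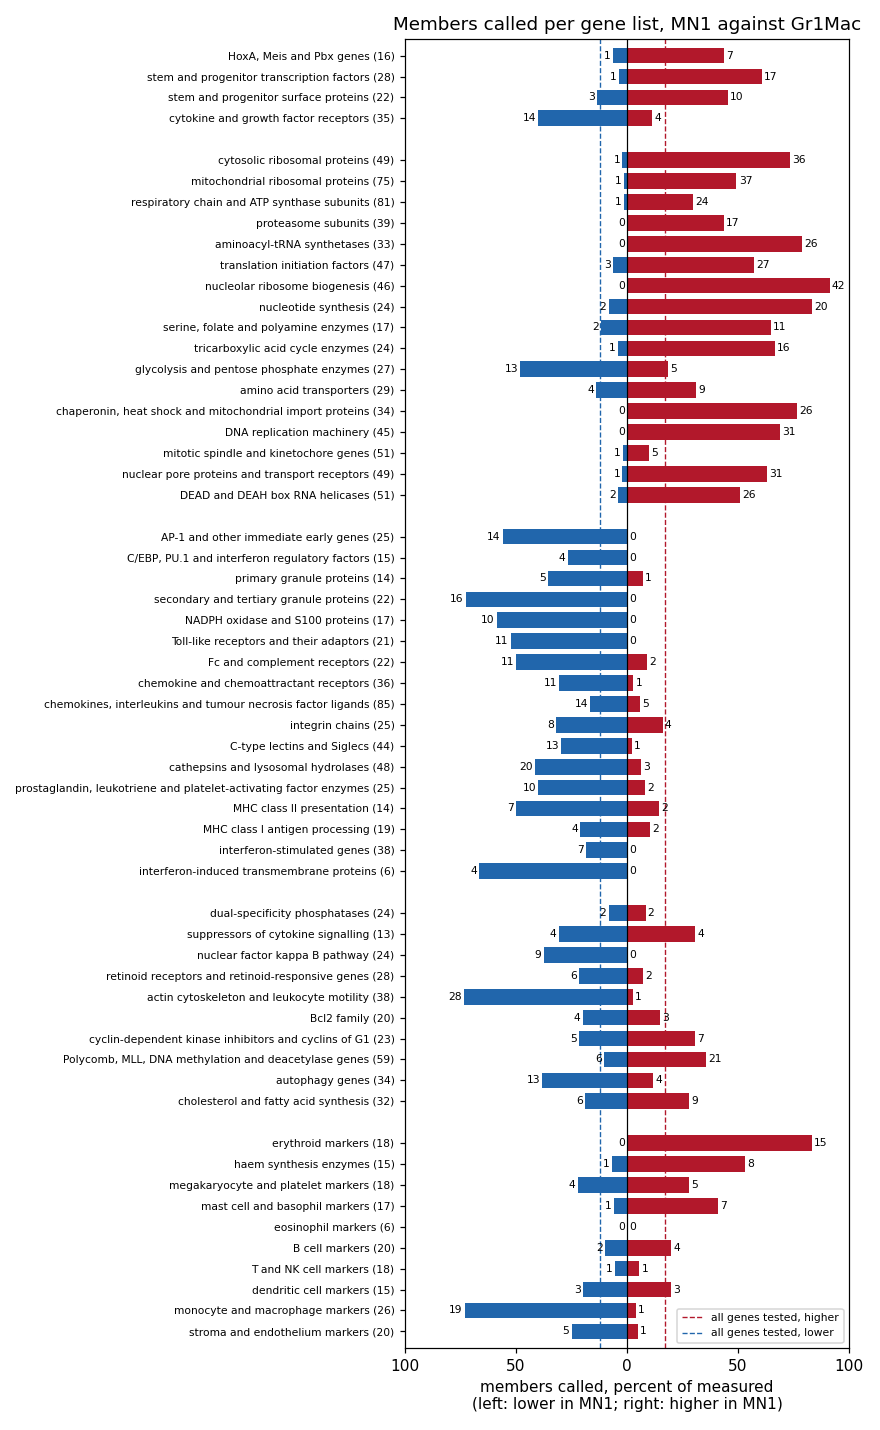
Share of the measured members of each of 58 gene lists called lower (blue, to the left) and higher (red, to the right) in MN1, in percent; numbers at the bars are members called, those in brackets are members measured, and dashed lines mark the 12.0% and 17.3% of all genes. Nucleolar genes reach 42 of 46 on the right, and actin genes 28 of 38 on the left; the medians of the mitotic, amino acid transporter, lipid synthesis and cytokine suppressor lists turn below 0 with each array centred on its median.

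Means over the members of a list showed how evenly the 4 arrays carried these differences. For nucleolar, ribosomal, replication and cycle enzyme lists both MN1 arrays lay close together, and the larger distance was between the Gr1Mac arrays. For granule, oxidase and actin lists it was the MN1 arrays that lay apart, with MN1 array 2 the lower. The MN1VP16 mean fell between the other 2 groups in 2949 of the 3147 genes called higher and in 1972 of the 2187 called lower. These comparisons share their arrays, so the intermediate position is given as a description.

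**Figure D5:**
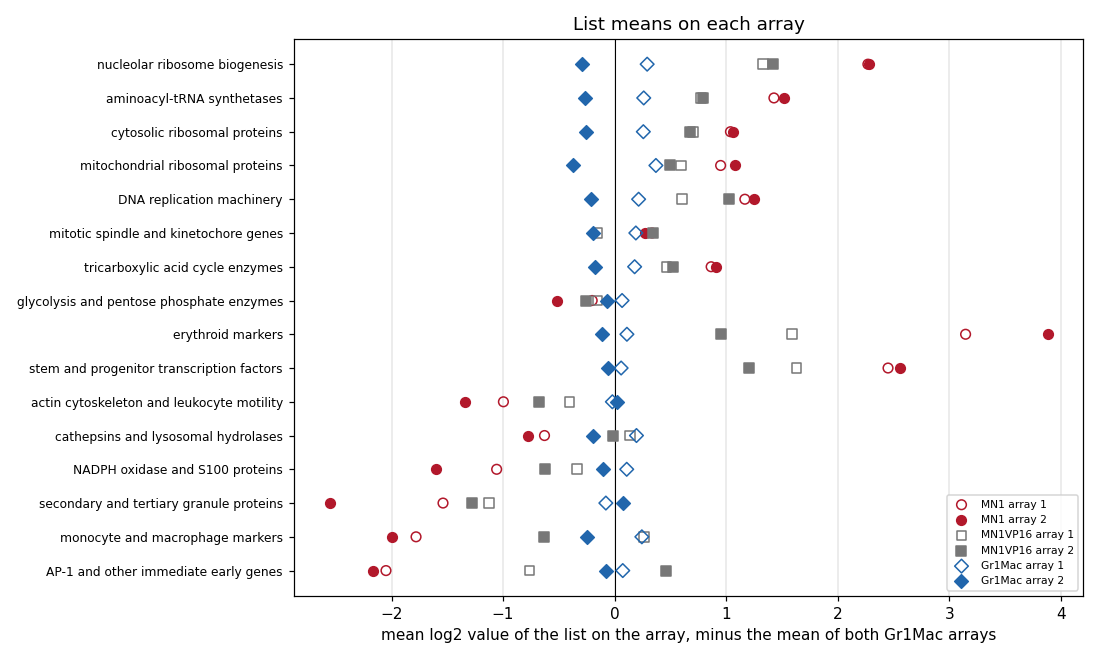
Mean log2 value of 16 gene lists on each array, minus the mean of both Gr1Mac arrays (x axis); circles are MN1, squares MN1VP16 and diamonds Gr1Mac, open for array 1 and filled for array 2. The nucleolar list stands at 9.99 and 10.00 in MN1 against 8.01 and 7.43 in Gr1Mac before the subtraction; the mitotic list, whose median of 0.24 turns to -0.02 with each array centred on its median, lies close to 0.

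Promoter sequences were set beside the groups that moved together. RefSeq promoter windows on GRCm38.p6, from 250 bases before to 50 after the gene's start, were searched on both strands for short motifs, and 14452 of the tested genes had a window. A gene can have several windows, and shares are over windows. The letters CACGTG, the E-box bound by Myc and Max, were in 7.15% of all promoters in the table, in 8.72% of those of tested genes and in 14.4% of those of genes called at least 4-fold higher (140 of 970). They were in 8.36% of those called at least 4-fold lower (49 of 586) and in 18.0% of the nucleolar list (9 of 50). But they were also in 25.0% of the secondary granule list (5 of 20) and 19.2% of the immediate early list (5 of 26). Both of these lists had falls and 0 rises. The transfer RNA synthetase list, with rises and 0 falls, held them in 19.2% (5 of 26), and the interferon-stimulated list in 0 of 31. Myc itself, named after its values were seen, read 11.17 and 10.91 against 7.07 and 6.23, a 21.0-fold rise. The stretches below, upstream of the start of 3 nucleolar genes, are shown as instances of the match, which is in capitals. Rrn3, an initiation factor of RNA polymerase I, was 4.52-fold higher, Nop2, a ribosomal RNA methyltransferase, 3.55-fold, and Nmd3, an export adaptor of the large subunit, 2.97-fold. They lie on the plus strand at chr16:13780621-13780686, chr6:125131793-125131858 and chr3:69721911-69721976.
Rrn3: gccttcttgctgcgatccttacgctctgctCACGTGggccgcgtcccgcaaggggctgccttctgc
Nop2: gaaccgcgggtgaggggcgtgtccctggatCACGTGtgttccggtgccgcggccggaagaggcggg
Nmd3: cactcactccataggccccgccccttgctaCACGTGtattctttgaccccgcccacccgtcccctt

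For the lower genes the letters TTGCNNAA, a form of the C/EBP site, were in 10.8% of all promoters, 9.39% of those of tested genes, 11.8% of those called at least 4-fold lower, 7.11% of those called at least 4-fold higher and 35.0% of the secondary granule list (7 of 20). Slpi, a protease inhibitor, read 11.66 and 10.39 in MN1 against 14.01 and 13.45, and Mmp8, the neutrophil collagenase, read 12.95 and 11.68 against 14.14 and 14.39. Their matches, in capitals, begin 241 and 19 bases before the start, at chr2:164356711-164356757 (minus strand) and chr9:7558380-7558428 (plus strand).
Slpi: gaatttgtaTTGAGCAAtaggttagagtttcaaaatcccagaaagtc
Mmp8: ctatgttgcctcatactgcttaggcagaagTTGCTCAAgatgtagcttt

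The letters TGANTCA, which AP-1 binds, were in 7.81% of all promoters, 6.38% of those of tested genes, 10.9% of those called at least 4-fold lower and 5.05% of those called at least 4-fold higher. In the immediate early list itself 0 of 26 windows held them, while TGACGTCA, the cyclic AMP response element, was in 11.5% (3 of 26). That element was in 1.79% of all promoters and 2.49% of those of tested genes. Among genes called at least 4-fold lower it was in 2.05% (12 of 586), and at least 4-fold higher in 2.37% (23 of 970). Dusp1, a phosphatase of MAP kinases, read 9.87 and 8.84 against 13.38 and 13.06, a fall that lost its call without MN1 array 2, without either Gr1Mac array and with the split. Btg2, an antiproliferative early gene, read 9.38 and 9.23 against 11.58 and 11.33, a 4.45-fold fall. Their matches, in capitals, lie on the minus strand at chr17:26508578-26508645 and chr1:134079284-134079351.
Dusp1: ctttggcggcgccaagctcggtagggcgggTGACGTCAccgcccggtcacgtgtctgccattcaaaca
Btg2: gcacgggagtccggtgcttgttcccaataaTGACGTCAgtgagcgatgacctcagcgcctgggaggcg
In all 10 motifs were searched, and the other 6 are given here with the shares among promoters of tested genes, of genes called at least 4-fold higher and of genes called at least 4-fold lower, in that order. The Ets core GGAAGT was in 25.4%, 21.4% and 31.1%, and in 42.0% of the nucleolar list, whose genes were higher. The GATA letters AGATAA were in 8.09%, 8.66% and 6.48%, and CCAAT in 37.4%, 39.4% and 30.9%. The Hox-Pbx letters TGATTNAT were in 1.98%, 1.55% and 1.37%, with 3.22% of all promoters. The E2F letters TTTCGCGC were in 0.480%, 0.722% and 0.171%, and the interferon response core in 3.03%, 1.86% and 4.44%. A match shows only that the letters are present, and whether any factor bound there was not tested. Genes whose promoters are shown were taken as the most changed members of their list with an upstream match, outside the rule for named genes.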

How the data were processed

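Affymetrix Mouse430_2 arrays had been hybridised with RNA of sorted marrow cells, 2 for each of 3 groups. The authors deposited log2 values of each probe set; the submitters' processing notes name RMA, with a version not given in the sources used here. The method gives all arrays one distribution, which hides any change in the total RNA of a cell.

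Of 45101 lines, 64 were control features; 34945 probe sets named 1 gene, 932 several and 9160 none, per the platform annotation, and only the first were tested. Of these, 34741 matched a RefSeq gene table (GRCm38.p6) and 0 symbols changed. A gene was represented by its brightest probe set, and 9010 genes had more than 1.

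Limma 3.58.1 in R 4.3.3 (lmFit, eBayes) took all 6 arrays and a term for group alone, with 3 residual degrees of freedom and 3.03 added by the prior. Where leaving out an array left a group with 1, that lone array was assumed to vary like the other groups. Intervals are 95%. The code was tested on simulated data. Nothing in the labels says whether each array had its own mouse, so p-values rest only on how far these arrays spread, possibly for technical reasons, and no exact permutation test of 2 against 2 can fall below 0.05. The number of arrays limits the precision.

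Lists, members and tests were chosen with earlier results of these data known. Named genes were Hoxa9, Cd34, Klf4 and Mn1, the 15 largest rises and falls measured above the guide on both sides, and the 4 largest in each direction in each list; others are marked in the text. The labels do not say whether equal array numbers pair the samples, and the main fit did not pair them. Correlations of deviations between arrays of equal number were -0.05, -0.05 and 0.08, which cannot decide it.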

Additional observations from a re-analysis of the deposited data

How the results depend on the processing

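The 314 called genes under the naming rule kept their direction wherever they were tested, except under 1 alternative; the filter on genes under the guide left 310 of them and that on the dimmest 40% left 301. Without the _x_at, _s_at and _a_at probe sets, which can match several transcripts, 248 kept their call, 16 lost it, the rest of the 314 but 9 were not measured, and those 9 reversed, with differences of -0.051 for Atg2b, -0.34 for Dusp12, -0.12 for Eif2ak4, -0.23 for Farsa, -1.22 for Idh2 (adjusted p = 0.0218), -0.20 for Igll1, -0.66 for Ndufa12, -0.59 for Pfkl and -0.35 for Tsc22d1. The cause was not tested. Limma called 3147 genes higher and 2187 lower. With the split of the bright control features as a block, which rests on the 2 MN1VP16 arrays, the counts were 914 and 572. Against a threshold of 1 log2 unit (treat), a stricter question, they were 768 and 331. With each array centred on its median 4003 genes were lower and 2484 higher. Leaving out 1 array gave 1519 to 3103 higher and 899 to 2097 lower, lowest without MN1 array 2 (without MN1 array 1, 2015 and 1365). Leaving out either MN1VP16 array, like fitting the 4 arrays alone, gave 3032 and 2097, since a lone array adds no estimate of spread. With the replicate block the counts were 2972 and 2068. Sex of the cells, read from Xist and Y-linked genes, differed within a group only in Gr1Mac. As a term it gave the same counts as leaving out Gr1Mac array 2, so it was no separate check. The eBayes fits with trend or robust, quantile normalization, the mean of all probe sets and filters on dim genes each kept both counts within 1.5 times. With 2 arrays a group, genes not called may still differ.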
